A study of Mus musculus with 4 samples.

Results

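The preosteoblasts described here are 1192 of the 13739 cells kept from the noses of mouse embryos at embryonic day 14.5. They were chosen by a rule on transcript counts, not by sorting. A member held at least 2 unique molecular identifiers (UMIs, each counting 1 captured transcript) of Runx2 and none of Sp7. It also had at least 2 of 6 further genes detected (Alpl, Dlx5, Pdzrn4, Aspn, Clec11a and Sox6), no Epcam, no Pecam1 and fewer than 5 UMIs of Col2a1. The same gate with Sp7 detected held 513 cells, which are called Sp7-positive here. A wider set of 6621 mesenchymal cells with Prrx1 or Twist1 but no Runx2 and no Sp7 served as a second reference. Levels are given in CPM, the usual library-scaled unit: the UMIs of a gene summed over the cells of a class in 1 library, scaled by all UMIs of those cells.

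Whole embryonic noses were dissociated, frozen, and profiled by 10x Genomics droplet sequencing with 3-prime chemistry, so that reads come from next to the poly(A) tail. There were 2 control and 2 mutant libraries. The mutants carried a Sox10-driven Cre recombinase (Sox10cre;yap flox/WT;taz flox/flox in the series design; the sample labels name the Tg(Sox10-cre)1Wdr transgene with Yapflox and Tazflox alleles on C57Bl/6J). Sox10-Cre recombines in the neural crest, from which facial bone and cartilage arise. The sample labels give the controls as C57Bl/6J, the series design as yap flox/flox;taz flox/flox without Cre. The protocol names 2 noses of each genotype without saying that each library is 1 embryo, so p-values measure the spread between these libraries. More than 1 sequencing provider is named with no assignment to libraries, and a provider effect cannot be told apart from genotype.

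Osteoblasts form when a mesenchymal progenitor switches on Runx2, the master transcription factor of the lineage, and then Sp7 (osterix), which acts downstream of Runx2 and is needed for bone matrix production. Alpl encodes tissue-nonspecific alkaline phosphatase, an early marker that frees phosphate for mineral. Most facial bones form directly in such condensed mesenchyme, without a cartilage template. Sox6 is an HMG-box factor best known in cartilage, and Aspn encodes asporin, a small leucine-rich matrix protein.

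Kept cells numbered 4075 (control 1), 2474 (control 2), 2995 (mutant 1) and 4195 (mutant 2), with 35331450, 19767873, 29121739 and 26874057 UMIs. Values without a library name keep this order throughout. The median preosteoblast held 7472, 7583, 8801.5 and 6216.5 UMIs. Sp7-positive cells were deeper, with medians from 8862 to 11592. Between 4 and 8 cell barcodes were shared by any pair of libraries.

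Preosteoblasts made up 9.55% of kept cells in control 1 (389 cells, exact 95% binomial interval 8.66 to 10.5) and 8.21% in control 2 (203 cells, 7.15 to 9.36). In mutant 1 they made up 8.68% (260 cells, 7.70 to 9.75) and in mutant 2 8.10% (340 cells, 7.30 to 8.97). The intervals cover counting error only, and the genotypes overlapped. The log2 ratio of mutant to control was -0.09 ± 0.11 (SE, edgeR quasi-likelihood test, p = 0.445; exact permutation p = 0.67, 2 libraries against 2, where 0.33 is the smallest possible). Of the gate, 34.0%, 29.0%, 23.5% and 30.6% of cells were Sp7-positive. The log2 ratio of the Sp7-positive share of kept cells was -0.42 ± 0.27 (edgeR quasi-likelihood p = 0.221, no exact test run).

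The genes of the rule are given as a description only, since they chose the cells. Runx2 stood at 778, 834, 905 and 997 CPM. Alpl stood at 155, 129, 150 and 213 and was detected in 667 members (56.0%), so for the other members the word Alpl in the name rests on other genes of the rule. Aspn stood at 503, 454, 527 and 514 and was found in 954 members (80.0%). Sox6 was found in 843 members (70.7%), at 637, 590, 630 and 611. These 2 genes were the most evenly spread of the further genes, whereas Pdzrn4, a PDZ and RING finger protein, ranged from 164 in mutant 1 to 292 in mutant 2. Dlx5, a homeobox activator of osteoblast genes, was found in 264 members (22.1%), at 37.9 to 52.7. Clec11a, a secreted bone growth factor, stood at 53.0 to 86.9. Of the 6 further genes, 430 members had 2, 393 had 3, 251 had 4, 96 had 5 and 22 had all of them.

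Free RNA was gauged in cells with macrophage markers, which should lack these genes. There, Alpl had a UMI in 7.46%, 3.28%, 0% and 5.75% of cells (67, 61, 45 and 87 cells, so that 0 of 45 allows up to 6.67%), against 55.5%, 47.3%, 55.4% and 62.1% of preosteoblasts. Sox6 was found in 2.22% to 11.9% of the macrophage-type cells and in 66.2% to 73.9% of preosteoblasts. Alpl and Sox6 count among the 6 further genes of the rule. Their higher share in preosteoblasts is therefore fixed in part by the choice of cells. Runx2 had at least 1 UMI in more of the macrophage-type cells, 16.4%, 13.1%, 6.67% and 12.6%, while the rule asks for at least 2 UMIs. The macrophage-type cells were not shallower, with median UMIs from 7746 to 10232.

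**Figure D1:**
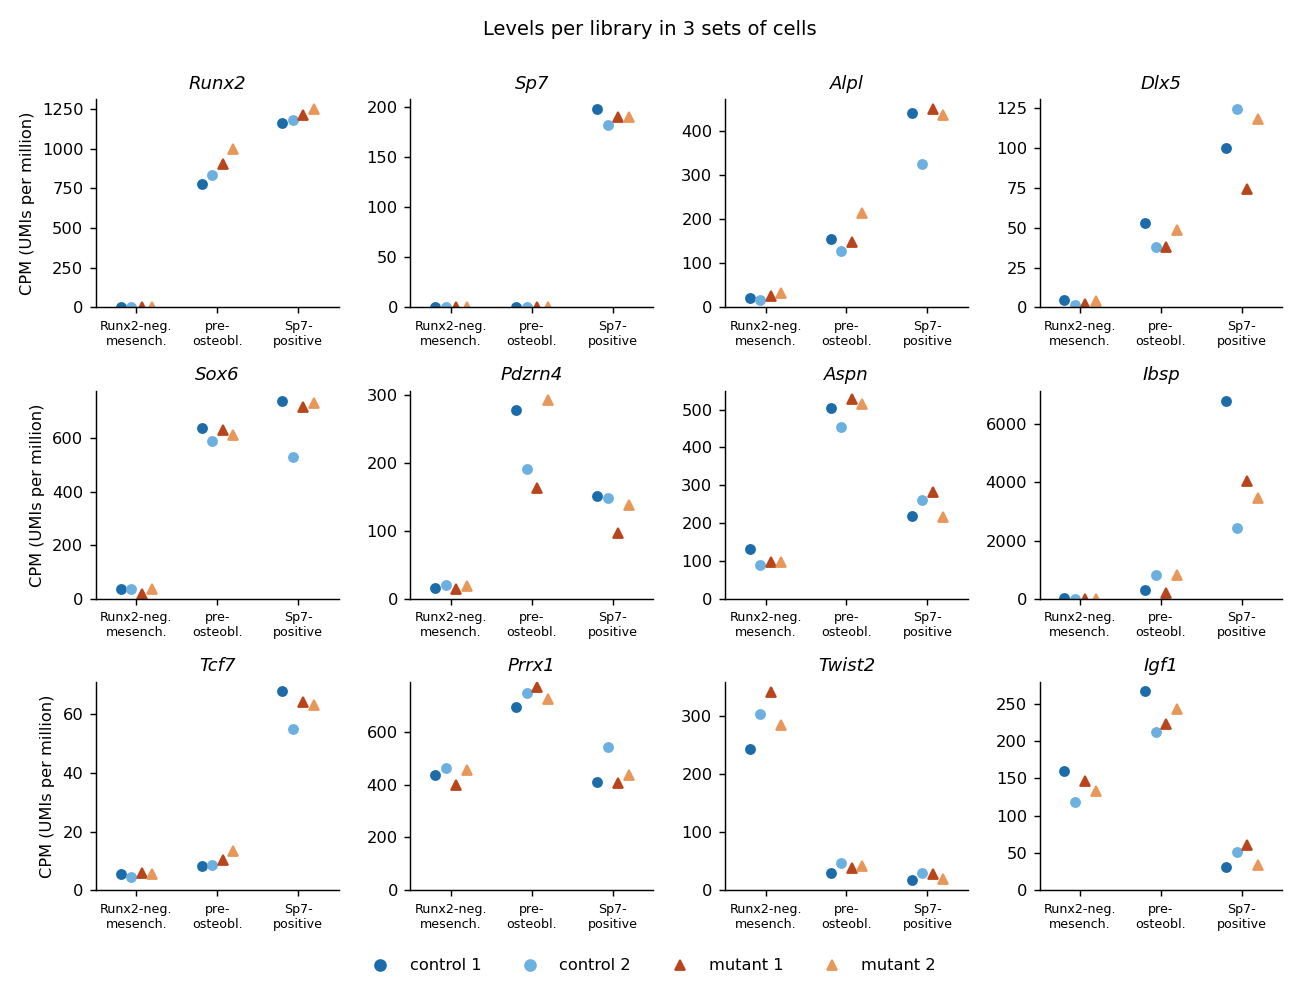
Levels of 12 genes in CPM (linear axes from 0), 1 point per library, in Runx2-negative mesenchyme, preosteoblasts and Sp7-positive cells of the same gate; circles are controls and triangles mutants. Runx2, Sp7, Alpl, Dlx5, Sox6, Pdzrn4 and Aspn are genes of the rule; Igf1 and Prrx1 are highest in the preosteoblasts in all 4 libraries, and Tcf7 stands at 8.30 to 13.5 in preosteoblasts against 55.0 to 67.8 in Sp7-positive cells.

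Beside Runx2-negative mesenchyme, and again without a test, the preosteoblasts kept the genes of facial mesenchyme in part. Prrx1, a homeobox factor of craniofacial and limb mesenchyme, averaged 734 CPM against 438 in the Runx2-negative cells, and was found in 1094 members (91.8%). Alx1, a frontonasal homeobox gene, averaged 362 against 206. Twist1, a bHLH factor that restrains Runx2, averaged 383 against 571, and its relative Twist2 39.0 against 293. The Runx2-negative cells had to hold Prrx1 or Twist1, and the preosteoblasts did not. The levels of Prrx1 and Twist1 in the Runx2-negative cells are therefore raised in part by the choice of cells. The forkhead gene Foxp2 averaged 467 against 191 and the Wnt-binding Sfrp2 719 against 473. Lower in the preosteoblasts were the odd-skipped genes Osr1 (31.9 against 119) and Osr2 (30.1 against 135), the T-box gene Tbx15 (60.1 against 202), Wnt5a (101 against 249) and Dcn, the proteoglycan decorin (297 against 828). The means are over the 4 libraries. Of 38 facial patterning genes 9 were higher and 11 lower in the preosteoblasts without overlap of libraries, as were 9.32% and 10.3% of all genes. Of 19 fibrous matrix and tendon genes, 11 were higher and 2 lower without overlap, and decorin belongs to this list. In it, Tnmd, a tendon membrane protein, averaged 79.6 against 30.4, the tendon factors Scx 28.7 against 12.5 and Mkx 57.8 against 13.1, and Tnc, the matrix protein tenascin C, 225 against 70.5.

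Markers of most other cell types were low. Summed over their lists, endothelial markers reached 1.24 to 5.83 CPM in the preosteoblasts of the 4 libraries, epithelial markers 2.91 to 13.5, glial markers 6.33 to 10.3 (Foxd3 at 0 in all) and macrophage markers 0.83 to 12.8. Pecam1 and Epcam were at 0 by the rule. Mural markers summed to 159 and 129 in the controls and 312 and 188 in the mutants, and chondrocyte markers to 153 to 176. Neuronal markers summed to 172 to 269.

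Clustering the members gave 7 subgroups, which describe how the preosteoblasts vary and carry no test. Subgroup 1 (255 cells) was led by neurite and adhesion genes, Cdh12 (322 CPM against 30.7 in the other members), Csmd3, Ncam2 and Nav3. It also held Ostn, which encodes the secreted peptide osteocrin (78.0 against 10.3). Subgroup 2 (169 cells) had Gria1, Mecom and Meis2 among its leading genes, with Pdzrn4 at 558, Pax3 at 171 and the jaw and palate factor Lhx8 at 72.2. Subgroup 4 (197 cells) was led by Cntn4, Lrriq1 and Pde1a and had Trps1, Hpse2 and Wnt5a among its leading genes. Its Msx1 stood at 344 and Alx1 at 693, with Sox6 at 252.

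Subgroup 5 (211 cells) had the highest level of the 7 for 12 of the 19 fibrous genes and for 10 of 18 cartilage genes. The share of all genes highest in subgroup 5 was not counted, so these counts only describe the lists. Some of the cartilage genes were low even there, with Matn1 at 5.72 CPM and Cnmd at 27.5. Subgroup 5 was led by Mia, a secreted protein also made by chondrocytes (316 against 36.0), and Klf2, and held Tnmd (255 against 35.6) and the fibril-associated collagen Col14a1 (223 against 38.4). Its Col2a1 stood at 105, Col9a1 at 88.3 and Matn4 at 105. Other fibrous genes were highest elsewhere: Scx in subgroup 2 (64.2 against 51.4 in subgroup 5), Mkx in subgroup 1 (77.0 against 54.0) and Postn in subgroup 4 (598 against 350). Its Col1a1 reached 6098, while Alpl stood at 33.3. Its Acta2 level is owed in good part to 1 cell, which held 34.4% of the UMIs. Subgroup 6 (55 cells) was led by Thsd7a and Epha6 and carried Barx1, a homeobox gene of oral and stomach mesenchyme (503 against 82.6), Lgr5, Tbx3 and Foxf1 (130 against 18.6), with Msx1 at 0. In subgroup 6, 1 cell held 36.7% of the Thsd7a UMIs and 1 cell 32.9% of the Epha6 UMIs. For Barx1 and Foxf1 the top cell held 8.99% and 6.52%. Subgroup 7 (140 cells) was dividing cells, with the ubiquitin-conjugating enzyme Ube2c at 640 against 7.98 and topoisomerase Top2a at 667 against 15.8.

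Subgroup 3 (165 cells) went against the name preosteoblast. Its leading genes were those of mature bone matrix: Ibsp, bone sialoprotein, at 3584 CPM against 27.8, Spp1, osteopontin, at 1660 against 3.58, the neutral sphingomyelinase Smpd3 at 323 against 6.20, Ifitm5, a bone-restricted membrane protein, at 274 against 5.96, and the osteocyte gene Dmp1 at 79.2 against 0.12. Alpl stood at 374 and Runx2 at 1387, the highest of the 7 subgroups. These values rest on few cells: Ibsp was detected in 30.9% of subgroup 3, and 1 cell held 53.6% of its Spp1 UMIs. Sp7 was at 0 in all of them by the rule.

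**Figure D2:**
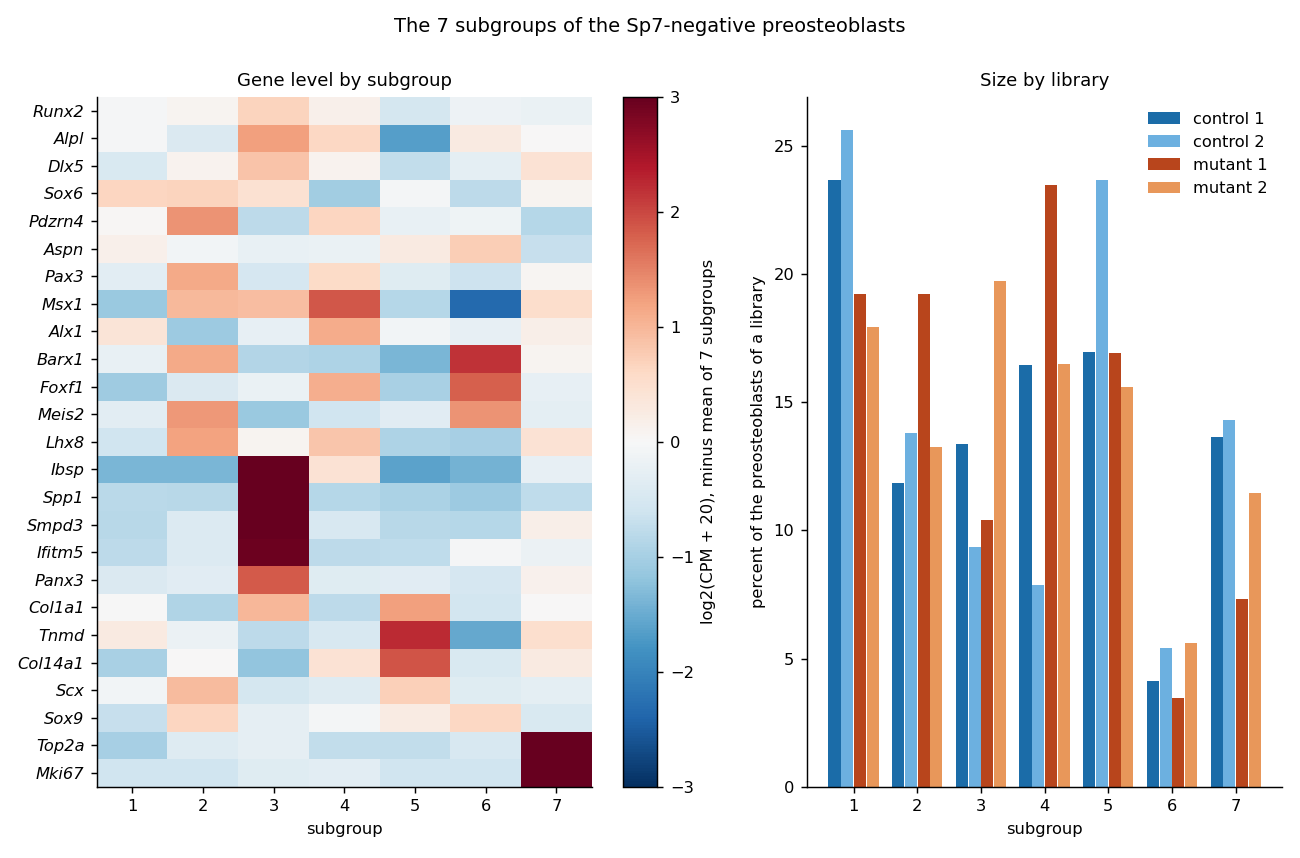
Left, gene levels in the 7 subgroups as log2 of CPM plus 20, minus the mean over subgroups; the colour scale ends at 3 and -3. Right, percent of each library's preosteoblasts in each subgroup; subgroup 3 carries Ibsp, Spp1, Smpd3 and Ifitm5, and subgroup 7 Top2a and Mki67.

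All subgroups held cells of the 4 libraries. Subgroup 1 made up 23.7% and 25.6% of the control members and 19.2% and 17.9% of the mutant members. Subgroup 3 made up 13.4%, 9.36%, 10.4% and 19.7%. Subgroup 4 ranged from 7.88% in control 2 to 23.5% in mutant 1, and subgroup 7 stood at 13.6% and 14.3% in the controls against 7.31% and 11.5% in the mutants. The subgroups were made from the same transcripts, and their sizes were not tested.

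Levels beside the lines that the rule draws are given here as values with no test. From members (Sp7 at 0) to 1, 2 and at least 3 Sp7 UMIs (262, 108 and 143 cells), Alpl went from 163 to 304, 425 and 564 CPM. Over the same steps Panx3 went from 13.8 to 61.5, 110 and 175, Ibsp from 489 to 2280, 2811 and 8833, and Aspn from 503 to 332, 236 and 119. Median depth went the same way, from 7462.5 to 8821, 10168 and 13027 UMIs per cell, and its part in these steps was not tested. Cells just inside the Runx2 line (2 UMIs, 215 cells) had Alpl at 109, and cells just outside (1 UMI, 307 cells) at 105. With 2 of the 6 further genes (430 cells) Alpl stood at 118, and with 1 (374 cells, outside) at 52.6. Alpl is itself 1 of the 6 genes counted, so this gap follows in part from the rule. Members with 1 to 4 Col2a1 UMIs (243 cells) had the chondrocyte factor Sox9 at 91.8 and Acan at 18.9, and the 79 cells left out for 5 or more had 344 and 258.

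The preosteoblasts were then compared with the Sp7-positive cells of the same libraries. Of 10989 genes outside the rule, 2940 (26.8%) were called. Of these, 1549 were higher in Sp7-positive cells (14.1% of genes tested) and 1391 were lower (12.7%; edgeR quasi-likelihood test with library as a block, Benjamini-Hochberg adjusted p under 0.05). DESeq2 called 1470 genes in all. The rule that named genes took the 12 with the greatest change in each direction, and all 24 separated the classes with no overlap, as did 8.12% of all genes on the higher and 15.9% on the lower side.

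Ifitm5 stood at 36.1, 51.9, 17.8 and 62.0 CPM in the preosteoblasts, and at 763, 245, 503 and 423 in the Sp7-positive cells. Every Sp7-positive value was above every preosteoblast value (log2 change 3.65 ± 0.30, edgeR adjusted p = 3.58e-06; chromosome 7, 140948958 to 140950291). Ibsp stood at 306, 813, 183 and 809 against 6797, 2439, 4047 and 3476 (3.22 ± 0.42, edgeR adjusted p = 0.000117; chromosome 5, 104299171 to 104311469). Panx3, a membrane channel of osteoblasts and hypertrophic chondrocytes, stood at 12.8, 16.3, 10.3 and 16.9 against 133, 83.5, 107 and 101. Its log2 change was 3.05 ± 0.17 (edgeR adjusted p = 4.47e-07; chromosome 9, 37659902 to 37669235).

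The sphingomyelin pathway gave a pair of genes among the 12. Smpd3 cleaves sphingomyelin in mineralising tissue (3.05 ± 0.27), and Sgms2, sphingomyelin synthase, makes it (2.86 ± 0.18; chromosome 3, 131318985 to 131491411). Sgms2 stood at 17.9, 23.3, 18.2 and 24.0 in preosteoblasts against 206, 98.8, 119 and 129. The others were the citrate transporter Slc13a5 (3.55), the carbonic anhydrase Car3 (3.45), the collagen genes Col11a2 (2.88) and Col22a1 (2.76), the fatty acid carrier Fabp3 (2.83), Cgref1 (2.80) and the chloride channel Ano1 (2.73). Without members and Sp7-positive cells of 10 or more Ibsp UMIs, Col22a1 no longer passed. With the rule applied after thinning, Panx3 did not pass either (0.85, edgeR adjusted p = 0.136).

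The 12 genes higher in preosteoblasts changed less in size. Zfp804b, a zinc finger gene, was the first (log2 change -2.73 ± 0.17, edgeR adjusted p = 5.73e-07). Igf1, the insulin-like growth factor, stood at 267, 213, 223 and 243 in preosteoblasts and at 31.0, 51.9, 60.4 and 33.3 in Sp7-positive cells (-2.42 ± 0.17, edgeR adjusted p = 1.02e-06; chromosome 10, 87858265 to 87937042). The classes were far apart in each library. Col8a1, a short-chain collagen, stood at 237, 414, 278 and 222 against 47.6, 98.8, 79.9 and 67.2 (-1.89 ± 0.10, edgeR adjusted p = 4.47e-07; chromosome 16, 57624258 to 57754737). Tnmd stood at 72.5, 74.0, 73.1 and 98.7 against 20.98, 35.6, 22.4 and 4.66 (-1.91 ± 0.30). The others were Clstn2 (-2.12), Rbfox1 (-2.04), the small GTPase Rhoj (-1.96), Mia (-1.95), Fmo1 (-1.92), Sorbs2 (-1.92), the guidance ligand Sema3c (-1.91) and Sgcz (-1.90). With the rule applied after thinning, Clstn2 (-0.81), Fmo1 (-1.07) and Sorbs2 (-1.59) did not pass (edgeR adjusted p = 0.450, 0.136 and 0.0623).

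**Figure D3:**
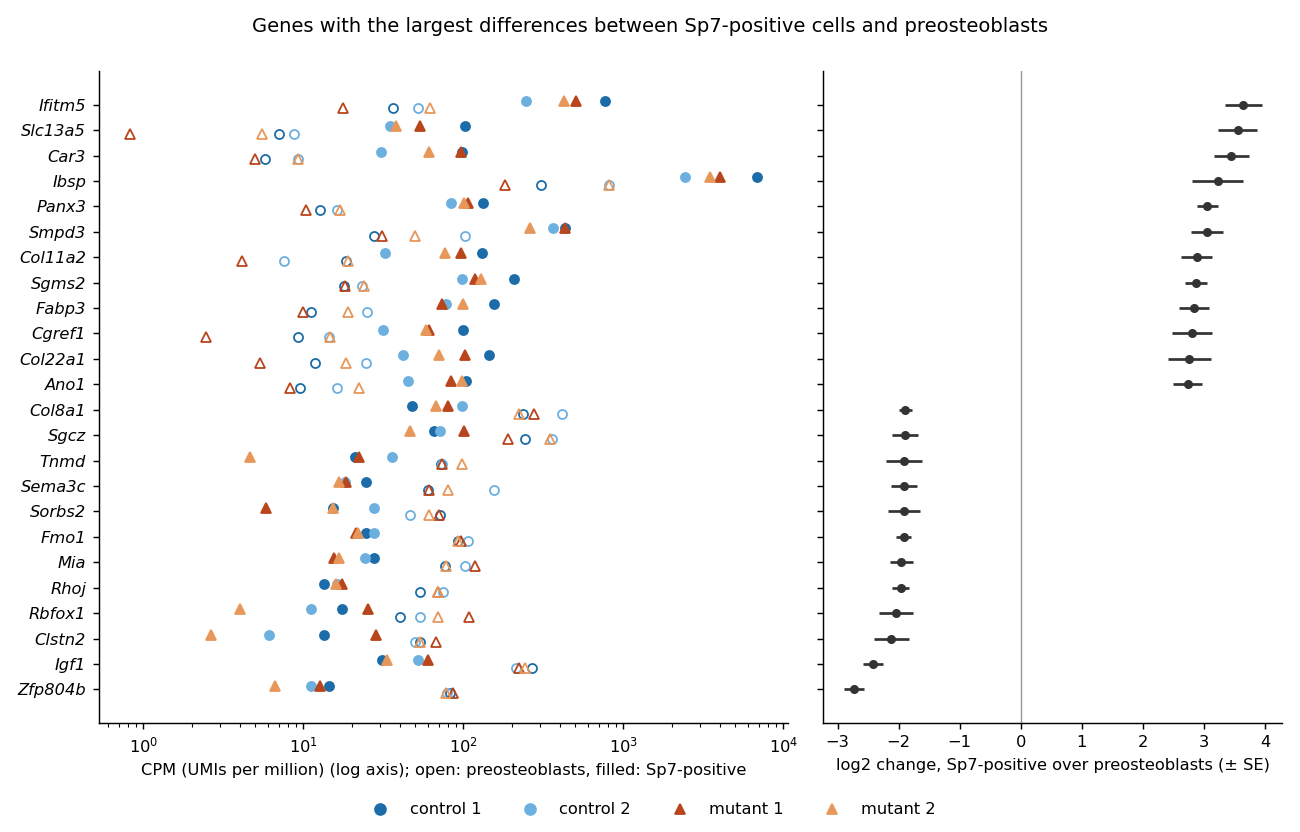
Left, CPM (log axis) of the 24 named genes in each library, open for preosteoblasts and filled for Sp7-positive cells; right, log2 change of Sp7-positive over preosteoblasts with its SE (edgeR). The 12 upper genes run from 3.65 (Ifitm5) to 2.73 (Ano1) and the 12 lower from -1.89 (Col8a1) to -2.73 (Zfp804b), with no overlap of classes in any row.

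Promoters of 4 genes are shown: Ibsp and Sgms2 (low in preosteoblasts), Col8a1 (high in preosteoblasts) and Spp1 (called between genotypes). Each runs from 250 bases before to 50 after a RefSeq transcript start, 5′ to 3′ on the gene's strand (GRCm38.p6). Capitals mark TGTGGT or its reverse complement ACCACA, the core bound by Runt-domain factors such as Runx2.
Spp1, chr5:104434861-104435160, plus strand: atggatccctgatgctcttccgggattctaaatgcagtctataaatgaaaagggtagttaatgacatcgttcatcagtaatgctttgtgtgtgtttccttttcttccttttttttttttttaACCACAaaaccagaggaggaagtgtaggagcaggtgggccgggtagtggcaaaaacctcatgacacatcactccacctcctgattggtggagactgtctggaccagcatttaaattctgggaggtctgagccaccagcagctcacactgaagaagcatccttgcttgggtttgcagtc
Ibsp, chr5:104299037-104299336, plus strand: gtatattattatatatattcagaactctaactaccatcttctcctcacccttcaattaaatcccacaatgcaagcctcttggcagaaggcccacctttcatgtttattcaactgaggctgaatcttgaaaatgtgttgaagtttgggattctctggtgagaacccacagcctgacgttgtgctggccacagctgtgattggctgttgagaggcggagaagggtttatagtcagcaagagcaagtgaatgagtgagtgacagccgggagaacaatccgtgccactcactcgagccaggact
Sgms2, chr3:131491394-131491693, minus strand: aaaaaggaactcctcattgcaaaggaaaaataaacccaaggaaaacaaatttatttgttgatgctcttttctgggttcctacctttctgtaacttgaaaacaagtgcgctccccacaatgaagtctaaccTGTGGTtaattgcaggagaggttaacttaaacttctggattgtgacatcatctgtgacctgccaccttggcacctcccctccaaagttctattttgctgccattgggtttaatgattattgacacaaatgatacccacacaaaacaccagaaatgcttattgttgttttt
Col8a1, chr16:57754688-57754987, minus strand: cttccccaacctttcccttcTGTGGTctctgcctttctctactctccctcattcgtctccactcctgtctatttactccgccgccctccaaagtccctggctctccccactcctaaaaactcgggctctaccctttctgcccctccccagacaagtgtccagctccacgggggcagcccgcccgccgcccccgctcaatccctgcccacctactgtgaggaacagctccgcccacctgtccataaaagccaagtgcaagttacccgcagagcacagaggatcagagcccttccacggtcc
Spp1, Sgms2 and Col8a1 each hold 1 match in these windows and Ibsp none. The window with a match is shown for Spp1 and Sgms2, and the other 1 of Spp1 and the other 5 of Sgms2 hold none. Of all 32851 RefSeq promoters of this length, 5506 (16.8%) hold at least 1 match on either strand. Of the 12 genes higher in Sp7-positive cells, 8 matched the RefSeq table, with 15 promoters, of which 1 holds the core. Of the 12 higher in preosteoblasts, 10 matched, with 13 promoters, of which 1 holds it. A match is a string of letters and no evidence of binding, and its lack in a window of this size says nothing about the factor.

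Among transcription factors of the osteoblast lineage, 7 of 17 were higher in Sp7-positive cells and 3 lower, with a median log2 change of 0.18 (all genes 0.00). Beside this and the lists that follow, 14.1% of all genes were higher in Sp7-positive cells and 12.7% higher in preosteoblasts. Tcf7, which carries Wnt signals to DNA, stood at 8.30, 8.74, 10.3 and 13.5 CPM in preosteoblasts against 67.8, 55.0, 64.3 and 63.3. This is a clear gap in each library (2.73 ± 0.16, edgeR adjusted p = 5.25e-07; chromosome 11, 52252371 to 52283014). Dlx3 (3.03 ± 0.27) and Dlx6 (1.54 ± 0.23) rose too. Twist1 (-0.57 ± 0.09), Twist2 (-0.67 ± 0.15) and the Runx2 antagonist Zfp521 (-0.98 ± 0.07) were higher in preosteoblasts. Twist2 did not pass with DESeq2 (adjusted p = 0.103), nor Twist1 with the rule applied after thinning (-0.40, edgeR adjusted p = 0.334). Msx1 (0.17 ± 0.11) and Msx2 (0.18 ± 0.16) did not pass.

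Of 25 bone matrix and mineral genes tested, 19 were higher in Sp7-positive cells and 1, Cped1, was higher in preosteoblasts (-1.08 ± 0.09). The median was 0.97. Pth1r, the parathyroid hormone receptor, changed by 1.56 ± 0.10 and Creb3l1, a secretory pathway factor, by 1.42 ± 0.14. The type I collagen chains Col1a1 (0.65 ± 0.10) and Col1a2 (0.43 ± 0.12) and the matrix protein Sparc (0.61 ± 0.14) depended on a minority of cells. Without cells of 10 or more Ibsp UMIs their changes were -0.44, -0.52 and -0.36, so that they then stood higher in preosteoblasts. Spp1 (1.55 ± 0.38) had overlapping classes and did not pass without mutant 2, without the library block, with DESeq2 or with the rule applied after thinning. Col1a2 lost its call with DESeq2, without control 1 or without mutant 1, and Sparc with DESeq2.

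Cartilage genes went mostly the other way: 9 of 12 were higher in preosteoblasts, with Sox5 at -0.86 ± 0.11 and Sox9 at -0.72 ± 0.15 (median -0.90). The exceptions were Col11a2 and the receptor Fgfr3 (1.44 ± 0.18). Since the rule caps Col2a1 in both classes, cells with more cartilage transcripts are missing from this comparison. Of 19 fibrous matrix and tendon genes, 13 were higher in preosteoblasts and 1, Tnc, higher in Sp7-positive cells (0.40 ± 0.09). The median was -0.64. Scx stood at 31.0, 24.5, 32.6 and 26.6 against 7.87, 10.2, 7.80 and 8.66, with no overlap (-1.66 ± 0.20, edgeR adjusted p = 6.29e-05), and Mkx changed by -0.64 ± 0.14. Of 32 facial patterning genes, 24 were higher in preosteoblasts and none higher in Sp7-positive cells (median -0.82). They include Prrx1 (-0.62 ± 0.07), Foxp2 (-1.81 ± 0.13), Alx1 (-0.51 ± 0.13) and Zic1 (-2.87 ± 0.43). Alx1 no longer passed without control 1, without cells of 10 or more Ibsp UMIs or with DESeq2, nor Mkx with DESeq2.

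In the Wnt list 5 of 28 genes were higher in Sp7-positive cells and 12 higher in preosteoblasts (median -0.42). Sfrp2 stood at 697, 581, 797 and 802 in preosteoblasts against 198, 231, 247 and 195 (-1.63 ± 0.09, edgeR adjusted p = 5.05e-07; chromosome 3, 83766321 to 83774316). The Wnt amplifier Rspo3 (-1.66 ± 0.14) and the BMP and Wnt antagonist Sostdc1 (-1.70 ± 0.18) were also higher in preosteoblasts. The antagonists Dkk1 (2.08 ± 0.21) and Wif1 (1.30 ± 0.10) were higher in Sp7-positive cells.

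In the BMP list 8 of 23 genes were higher in Sp7-positive cells and 5 higher in preosteoblasts (median 0.17). The ligand Bmp2 (0.88 ± 0.15) and the antagonists Nog (1.38 ± 0.23) and Chrdl1 (1.49 ± 0.15) were higher in Sp7-positive cells, and the receptor Bmpr1b (-1.31 ± 0.27) in preosteoblasts. In the FGF list 1 of 14 was higher in Sp7-positive cells and 6 higher in preosteoblasts (median -0.44). Fgf18, a ligand of forming bone, stood at 8.62, 8.74, 16.1 and 12.2 against 6.12, 0, 1.95 and 1.33 (-1.80 ± 0.48). It lost its call without mutant 1 or without mutant 2. In the Hedgehog list 1 of 10 was higher in Sp7-positive cells, the ligand Ihh, at 0.32, 0, 0 and 2.11 in preosteoblasts against 9.62, 16.3, 11.7 and 14.0 (4.29 ± 0.54). The coreceptors Boc (-1.19 ± 0.11) and Gas1 (-1.11 ± 0.08) were among 4 that were higher in preosteoblasts (median -0.06).

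The pathway that the mutants target was compared between the classes as well. YAP (Yap1) and TAZ (Wwtr1) are coactivators held in the cytoplasm by Hippo kinases, and they bind DNA through TEAD factors. Wwtr1 (-0.39 ± 0.10) and Tead1 (-0.47 ± 0.08) were higher in preosteoblasts, and Yap1 did not pass (-0.11 ± 0.11). In all, 4 of 15 Hippo pathway genes were higher in preosteoblasts and none higher in Sp7-positive cells (median -0.13). Of all genes tested, 12.7% were higher in preosteoblasts and 14.1% in Sp7-positive cells, 26.8% in all. Of 23 classic YAP and TAZ target genes, 10 were higher in preosteoblasts, with the matricellular Ccn2 at -0.89 ± 0.21 and the receptor Axl at -1.19 ± 0.22, and 1 was higher in Sp7-positive cells (median -0.31). Wwtr1 lost its call without mutant 2 and with DESeq2. With every cell thinned to 3000 UMIs, neither Wwtr1 nor Ccn2 passed, and Tead1 did not pass with the rule applied after thinning (-0.55, edgeR adjusted p = 0.212).

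Cell cycle genes were higher in Sp7-positive cells in 59 of 92, and none was higher in preosteoblasts (median 0.59). Top2a changed by 0.99 ± 0.13 and Mki67 by 0.86 ± 0.17, both with overlap between the classes. In cells thinned to 3000 UMIs, the share with at least 2 UMIs over 12 mitotic genes was 18.2%, 18.1%, 12.3% and 14.3% of preosteoblasts, 25.0%, 40.2%, 24.1% and 36.3% of Sp7-positive cells and 20.1%, 21.5%, 20.03% and 20.3% of Runx2-negative mesenchyme.

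Other cell types moved with the class in part. Macrophage markers summed to 12.8, 4.66, 0.83 and 0.84 CPM in preosteoblasts against 25.4, 129, 2.92 and 13.3 in Sp7-positive cells, and Fcer1g changed by 1.96 ± 0.45, a call lost without control 2. The mural genes Acta2 (-1.49 ± 0.16) and Tagln (-1.47 ± 0.20) were higher in preosteoblasts. Their part in the other changes was not tested. When the rule was applied after thinning, 167 of 4325 genes were called, and when it was applied before thinning 1353 of 7614. With the rule after thinning, Col1a1, Col1a2, Sox9, Mkx, Tnc, Rspo3, Sostdc1, Gas1, Boc, Top2a and Mki67 also kept their direction but not their call. A cell with no Sp7 UMI may still express Sp7, since counts of this size miss low transcripts.

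The comparison of genotypes asks whether the preosteoblasts differed between controls and Sox10-Cre mutants with floxed Taz and Yap alleles (1 of Yap in the series design). The targeted genes showed no detectable drop. Yap1 stood at 61.3 and 70.5 CPM in control preosteoblasts, against 51.6 and 62.0 in mutant ones, which overlap (log2 change -0.24 ± 0.16, edgeR adjusted p = 0.999; chromosome 9, 7931999 to 8004596). Wwtr1 stood at 111 and 122 against 111 and 113 (-0.09 ± 0.14, edgeR adjusted p = 0.999; chromosome 3, 57455649 to 57575910). A 3-prime assay can count transcripts that lack the floxed exons, so these levels do not check recombination. Sox10 itself gave 2 and 0 UMIs in control members and 6 and 1 in mutant members.

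Of 11593 genes tested in the preosteoblasts, 5 passed, all higher in the mutants (0.0431% of genes tested; edgeR, adjusted p under 0.05). DESeq2 called the same 5. At an unadjusted p under 0.05, 582 genes (5.02%) stood out, 289 higher (2.49%) and 293 lower (2.53%). The libraries of the genotypes did not overlap for 2396 genes higher in mutants (20.7%) and 1553 lower (13.4%). Leaving out 1 library raised the number of calls to 374 without control 1, 62 without control 2, 22 without mutant 1 and 86 without mutant 2, and the 5 genes were called each time. The lone library of a genotype is then assumed to vary like the other genotype, and which of the added calls belong to 1 library was not tested.

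Spp1, a phosphoprotein of bone matrix that is also secreted by immune cells, stood at 57.8 and 29.1 CPM in control preosteoblasts, against 463 and 318 in mutant ones. Both mutants were above both controls (3.07 ± 0.25, edgeR adjusted p = 8.34e-05; chromosome 5, 104435118 to 104441050). The difference rested on single cells. In control 1, 12 members held 181 UMIs, of which 1 cell held 169; in control 2, 6 members held 50, of which 1 held 34. In mutant 1, 7 members held 1121 UMIs, of which 1 cell held 1113, and in mutant 2, 10 members held 753, of which 2 held 549 and 189. Without the 2 highest cells of each library, 10, 6, 5 and 15 UMIs remained, and the genotypes overlapped. When the rule was applied after thinning to 3000 UMIs, the change was -0.10. The share of members with any Spp1 was 3.08%, 2.96%, 2.69% and 2.94%.

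All 6 members with 10 or more Spp1 UMIs also had 10 or more Ibsp UMIs, as did 37 members in all, while 1066 of the 1192 had no Ibsp. Ibsp did not follow genotype: its level of 306 and 813 in the controls against 183 and 809 in the mutants overlapped (-0.19 ± 0.48, edgeR adjusted p = 0.999). Without cells of 10 or more Ibsp UMIs, a step added after the data were seen, Spp1 was no longer called and the other 4 genes remained. With 3 of the 6 further genes required, Spp1 lost its call (2.03, edgeR adjusted p = 0.278). In Sp7-positive cells Spp1 stood at 502, 12.2, 541 and 1084, with a log2 change between genotypes of 1.56 ± 0.81 that did not pass. In macrophage-type cells it stood at 96.2, and the macrophage markers summed to 12.8 and 4.66 in control preosteoblasts and 0.83 and 0.84 in mutant ones.

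**Figure D4:**
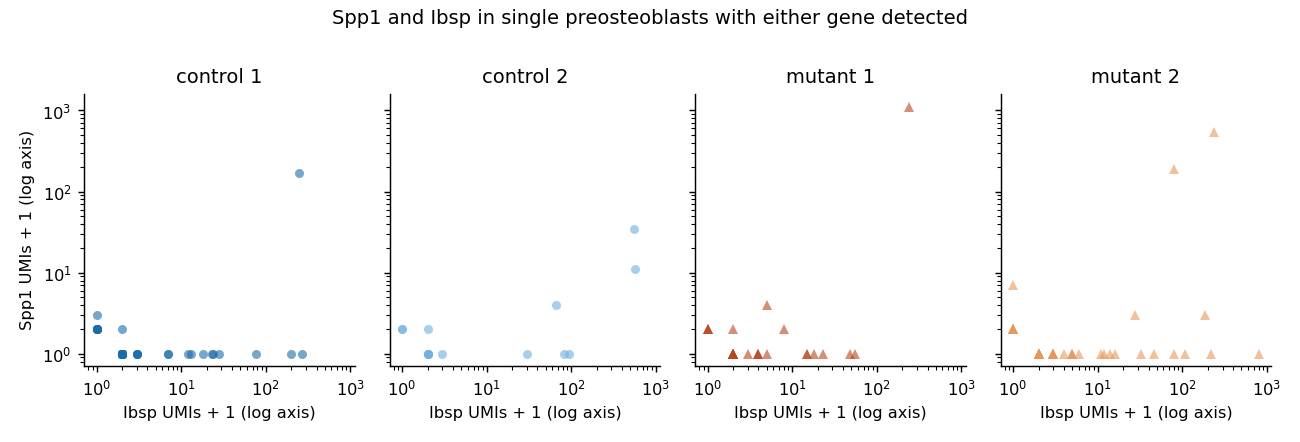
Spp1 against Ibsp UMIs, each plus 1 on log axes, for preosteoblasts with either gene detected, 1 panel per library. In each library 1 or 2 cells carry nearly all Spp1 UMIs (169 of 181 in control 1 and 1113 of 1121 in mutant 1), and these cells also hold many Ibsp UMIs.

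Eif3l, a subunit of the translation initiation factor eIF3, and Polr2f, a subunit shared by the RNA polymerases, were higher in many cells. Eif3l stood at 82.1 and 78.1 in the controls and 154 and 176 in the mutants (1.00 ± 0.14, edgeR adjusted p = 0.0317; chromosome 15, 79075179 to 79094405). It was found in 44.0% and 46.8% of control members and 68.1% and 61.5% of mutant members. Polr2f stood at 193 and 152 against 356 and 334 (0.96 ± 0.15, edgeR adjusted p = 0.0385; chromosome 15, 79141009 to 79151774). The genes lie near each other and near Sox10, from which the Cre transgene takes its regulatory sequence. Whether the transgene bears on the levels of Eif3l and Polr2f was not tested. The same difference was seen outside the preosteoblasts: Eif3l changed by 0.92 in Sp7-positive cells and 1.05 in Runx2-negative mesenchyme and Polr2f by 0.92 and 0.81, none past an adjusted p of 0.05 there.

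Hspa1a and Hspa1b, nearly identical genes for the inducible heat shock protein Hsp70, were the other pair. Reads of one can be assigned to the other, so their separate values are uncertain. Hspa1a stood at 12.5 and 4.08 in the controls against 45.8 and 38.0 in the mutants (2.14 ± 0.31, edgeR adjusted p = 0.0317; chromosome 17, 34969190 to 34972156). It was found in 5.91% and 3.45% of control members and 18.8% and 10.9% of mutant members. Hspa1b stood at 9.26 and 2.91 against 39.7 and 26.6 (2.23 ± 0.35, edgeR adjusted p = 0.0474; chromosome 17, 34956436 to 34959238). In Sp7-positive cells the changes were 2.03 and 3.14 and in Runx2-negative mesenchyme 1.65 and 1.95, none past the threshold. Of 18 genes that respond to dissociation and stress, these 2 passed, 7 were higher in mutants without overlap and none lower, against 20.7% and 13.4% of all genes (median 0.18, all genes 0.00). How far the handling of the noses bears on this was not tested. With likely doublets removed, Spp1 alone was called of the 5, and Eif3l, Polr2f, Hspa1a and Hspa1b were not.

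**Figure D5:**
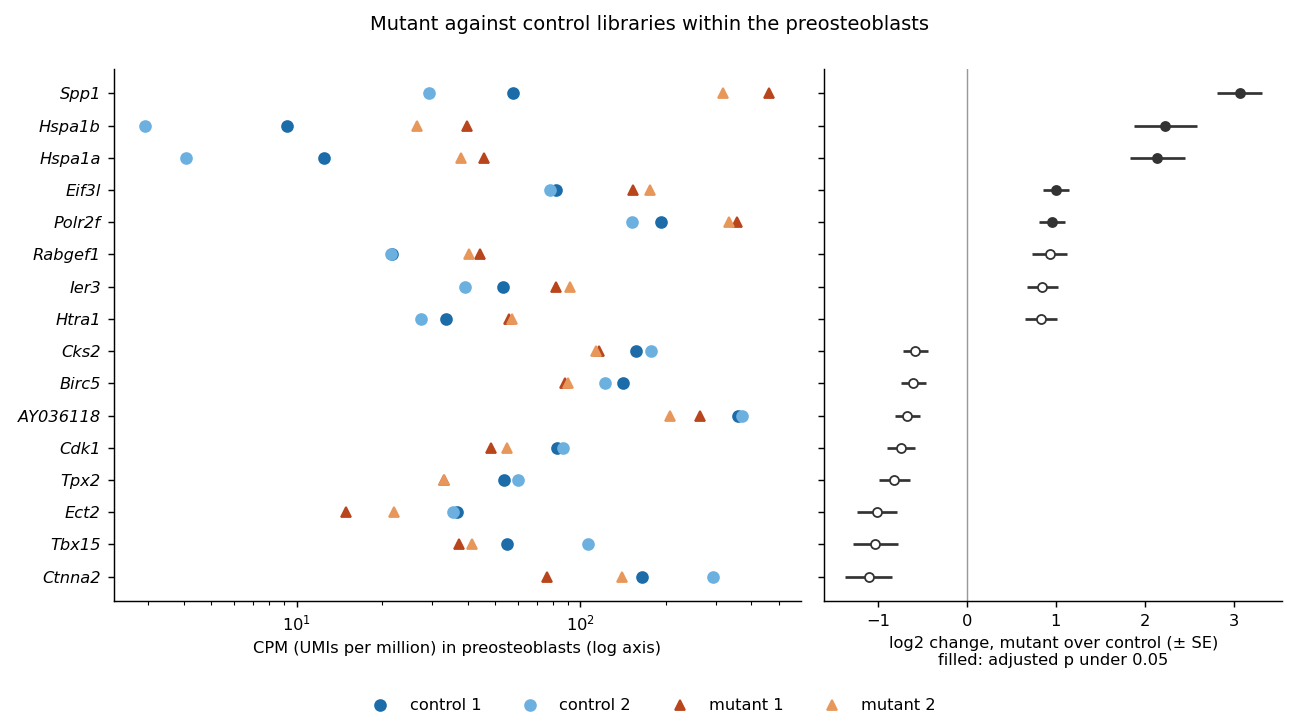
Left, CPM (log axis) of 16 named genes in the preosteoblasts of each library; right, log2 change of mutant over control with its SE, filled where the edgeR adjusted p was under 0.05. Only the 5 upper genes, Spp1, Hspa1b, Hspa1a, Eif3l and Polr2f, are filled.

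The next genes by p did not pass. On the higher side they were the stress-induced survival gene Ier3 (53.3 and 39.0 in the controls against 82.2 and 92.0 in the mutants, 0.85 ± 0.17), Rabgef1 (0.93 ± 0.19) and the secreted protease Htra1 (0.83 ± 0.18), each with an edgeR adjusted p of 0.325. On the lower side were the mitotic genes Tpx2 (-0.81 ± 0.17), Cdk1 (-0.74 ± 0.15), Ect2 (-1.01 ± 0.23), Cks2 (-0.58 ± 0.14) and Birc5 (-0.60 ± 0.14). With them stood AY036118 (-0.67 ± 0.14), the catenin gene Ctnna2 (-1.10 ± 0.26) and the T-box gene Tbx15 (-1.03 ± 0.25). Cdk1 stood at 82.4 and 86.8 in the controls against 48.3 and 55.3 in the mutants.

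Of 91 cell cycle genes tested none passed, 34 were lower and none higher at an unadjusted p under 0.05, against 2.53% and 2.49% of all genes, and the median was -0.34 against 0.00. Top2a (-0.72 ± 0.19) and Mki67 (-0.73 ± 0.23) were among the 34. With 1 library left out, the number lower at an unadjusted p was 38 without control 1, 28 without control 2, 11 without mutant 1 and 33 without mutant 2, with medians of -0.38, -0.33, -0.24 and -0.51. Of these genes 12, 5, 0 and 6 were then called lower. Calls were also made with no filter (10), with 3 of 6 further genes (3) and with a replicate block (3), all lower. With DESeq2 12 genes were lower at the same median of -0.34, while its unadjusted calls over all genes numbered 150 against 582. Thinning to 3000 UMIs left 17 of 80 lower (median -0.24) when the rule came first, and 1 of 67 (median 0.05) when it came after. The share of thinned preosteoblasts with at least 2 UMIs over 12 mitotic genes differed by -4.85 percentage points between the mean of the mutants and that of the controls, and the genotypes did not overlap (exact permutation p = 0.33, the smallest possible with 2 against 2). All 12 of these genes are among the 34 that were lower at an unadjusted p. The mitotic share therefore draws on the same genes and cells and is no separate support. In the Runx2-negative mesenchyme the mutant shares of 20.03% and 20.3% lay beside 20.1% and 21.5% of the controls. With a broader count of at least 3 UMIs over 93 cycle genes, nearly every preosteoblast counted (92.1%, 94.5%, 93.3% and 94.4%), a difference of 0.54 points (exact permutation p = 1).

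No gene of the lineage and signalling lists passed other than Spp1. The counts that follow are at an unadjusted p under 0.05, which 2.49% of all genes met on the higher and 2.53% on the lower side. Of 16 osteoblast transcription factors tested, 2 were higher and 1 lower at an unadjusted p under 0.05 (median 0.07). Msx1 stood at 111 and 79.8 in the controls and 194 and 122 in the mutants, without overlap, but did not pass (0.67 ± 0.21, edgeR adjusted p = 0.721). Of 23 bone matrix genes, 2 were higher and none lower (median 0.07), and Spp1 was the only call. Of 14 cartilage genes, 3 were higher and 2 lower (median 0.25), of 19 fibrous genes 2 and none (0.08), and of 34 facial patterning genes 8 and 2 (-0.01). In the latter, Pax3 (0.54), Pax9 (0.70) and Osr2 (0.71) were higher and Meox2 (-1.32) lower at an unadjusted p under 0.05, and none passed the adjusted threshold.

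Of 28 Wnt genes, 3 were higher and 2 lower at an unadjusted p under 0.05 (median 0.18), of 24 BMP genes 1 and 1 (0.06), and of 14 FGF genes 2 and none (0.22). None of the 9 Hedgehog genes stood out (-0.09). Of 23 YAP and TAZ target genes 1 was higher and 1 lower (median -0.06), and Ccn2 stood at 38.3 and 43.1 against 45.0 and 53.6 (0.25 ± 0.17, edgeR adjusted p = 0.999). Of 15 Hippo pathway genes none stood out (-0.13). The mural genes Acta2 (0.96 ± 0.22) and Tagln (0.94 ± 0.23) did not pass (edgeR adjusted p = 0.344 and 0.444), and 1 cell of mutant 1 held 194 of its 366 Acta2 UMIs and 1 held 111 of its 302 Tagln UMIs.

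Whether genotype acted differently in preosteoblasts and Sp7-positive cells was tested as an interaction. None of 11688 genes passed (0%; edgeR), 461 (3.94%) had an unadjusted p under 0.05, and DESeq2 called none with 42 unadjusted. Cdk1 gave the cycle gene contrast, with a change between genotypes of -0.74 in preosteoblasts and 0.15 in Sp7-positive cells (interaction 0.88 ± 0.21, edgeR adjusted p = 0.761). Ier3 stood the other way round, at 0.85 and -0.08 (interaction -0.94 ± 0.22, edgeR adjusted p = 0.672). Neither difference was shown.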

How the data were processed

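Gene counts of 4 droplet libraries (2 control, 2 mutant) were used as deposited by the authors: raw UMI counts per gene and cell barcode, not normalized. Per the file headers the matrices came from Cell Ranger 8.0.1. The submitters' processing notes name Cell Ranger 4, Seurat 4.3.0 and mm10, and which steps each made is not given in the sources used here. Of 32285 features, 32158 matched GENCODE M21 (GRCm38), from which gene positions were taken. Groups came from the sample titles.

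Kept cells had 500 or more genes and no more than 10% mitochondrial UMIs. The members, gene lists and named genes were chosen with earlier results of these data known. Doublets were kept, because Scrublet's own threshold marked 1, 3, 0 and 1 cells and had not worked. The alternative removed the 149, 56, 87 and 163 highest scores, a share that grows with the number of barcodes. Cells with at least 3 of 6 macrophage markers gauged free RNA.

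For each class the UMIs of its cells were added up within a library, and the sums entered edgeR 4.0.16 under R 4.3.3 with limma 3.58.1 (TMM scaling, filterByExpr, quasi-likelihood test), with Benjamini-Hochberg adjustment over all genes tested and a threshold of 0.05. The contrast of Sp7-positive cells with preosteoblasts had library as a block, since both sums come from 1 library, and log2 changes are from this fit. DESeq2 1.42.0 was an alternative. The edgeR fits were run first on simulated counts. Shares were compared by exact permutation tests (scipy 1.17.1, Python 3.11.15). Where depth matters, cells were thinned to 3000 UMIs. Subgroups came from scanpy 1.11.5 (2000 variable genes, 20 principal components, 15 neighbours, Leiden resolution 0.4), with log2 ratios at a pseudocount of 20 CPM. The count over 12 mitotic genes was added after the planned count over 93 cycle genes was seen to mark nearly every cell, and leaving out cells of 10 or more Ibsp UMIs was also added after seeing the data. The 12 mitotic genes were Mki67, Top2a, Cenpf, Cdk1, Birc5, Tpx2, Nusap1, Ube2c, Ccnb2, Cenpe, Hmmr and Aurkb.

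Named genes between genotypes were 8 in each direction among genes without overlap. Genes that were called came first, whatever their level. The rest were those with the smallest p among genes with a mean of at least 20 CPM. Named genes between classes were the 12 with the greatest log2 change in each direction among genes called, moving 1 way in all libraries and reaching 50 CPM in the higher class. Genes of the lists could also be named. Promoters and motifs came from RefSeq (GRCm38.p6).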

Additional observations from a re-analysis of the deposited data

How the results depend on the processing

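Precision is limited by 2 libraries per genotype and by depth, since a median preosteoblast holds few UMIs of any regulator and an Sp7 UMI can be missed. Shares: the log2 ratio of the preosteoblast share turned to 0.047 with the rule applied after thinning and lay between -0.19 and 0.025 when 1 library was left out (0.025 without control 1). The broad cycling share differed by -0.40 points without thinning and by -0.64 to 1.71 points with 1 library left out, and the mitotic share by -5.85 to -3.86.

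Genotype: the 5 calls became 93 with no filter on low counts, 1 with doublets removed, 8 with Runx2 at 3 or more UMIs, 13 with 3 of 6 further genes, 2 with thinning after the rule, 0 with thinning before the rule (376 at an unadjusted p under 0.05) and 22 to 374 with 1 library left out. With a replicate block there were 20 calls, 12 higher and 8 lower, and the share gave -0.08. Same-numbered libraries did not deviate together (correlation 0.06 over 11593 genes). The labels name no shared litter, day or batch, and with 2 libraries per genotype the correlation cannot decide it. With thinning before the rule the changes turned for Spp1 (-0.10), Cdk1 (0.38), Cks2 (0.12), Top2a (0.21) and Mki67 (0.55). Ibsp turned to 0.14 with thinning after the rule, 0.081 with 3 of 6 genes, 0.43 without its own high cells, 0.65 without control 2 and 0.51 without mutant 1, and ranged from -1.63 to 0.65 with 1 library left out. The cause was not tested.

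Sp7 class: the 2940 calls became 1470 with DESeq2, 1353 with thinning after the rule, 167 with thinning before it (fewer genes and cells enter) and 2096 to 2550 with 1 library left out. Without the library block there were 2512. Col1a1 (-0.44), Col1a2 (-0.52) and Sparc (-0.36) turned without cells of 10 or more Ibsp UMIs. Of the single genes under each alternative, 847 values kept direction and side of the threshold, 41 lost the call and 2 gained it.

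Interaction: the 0 calls became 32 with no filter, 1 with thinning after the rule, 5 with thinning before it, 1 without the high Ibsp cells and 1 to 8 with 1 library left out. With thinning before the rule, Cdk1 turned to -1.36 and Top2a to -1.62.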

Other observations

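Meg3, a maternally expressed noncoding RNA, and Dlk1, a paternally expressed inhibitor of differentiation from the same imprinted cluster, followed the steps of Sp7. In summed CPM, Meg3 stood at 812 in preosteoblasts, 334 in cells with 1 Sp7 UMI, 174 with 2 and 79.4 with 3 or more. Dlk1 stood at 259, 119, 39.7 and 28.2 over the same steps. In Runx2-negative mesenchyme they stood at 1210 (Meg3) and 792 (Dlk1), and in cells with 1 Runx2 UMI just outside the rule at 1114 and 531. The genes were chosen after their values were seen, and these are values with no test.

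Among basement membrane genes 2 of 12 were higher in Sp7-positive cells and 6 higher in preosteoblasts (median log2 change -0.68), and none stood out between genotypes. Of 18 dissociation and stress genes, 4 were higher in Sp7-positive cells and 3 in preosteoblasts (median 0.01). Beside both lists, 14.1% of all genes were higher in Sp7-positive cells and 12.7% in preosteoblasts, and no result is drawn from the stress counts. Muscle markers reached 40.6 CPM in the Sp7-positive cells of mutant 2 and at most 1.75 in the preosteoblasts of any library.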
